A study of Mus musculus with 2 samples.

Results

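Keratin genes were followed across the cell classes of the mouse thymic medulla and between 2 genotypes. The members were all genes whose symbol is Krt followed directly by a digit. This rule found 55 of the 55487 genes in the count matrix, and each of the 55 had at least 3 UMIs in the annotated cells, where a UMI marks 1 captured RNA molecule. Together they had 771818 UMIs. The cells were medullary thymic epithelial cells with low MHC class II (mTEClo) of C57BL/6 mice, depleted of CD45+ cells and sorted as Pdpn- CD104-. The 4 Hnf4dTEC samples, called mutant below, were Foxn1(cre/+) Hnf4a(fl/fl) Hnf4g(-/-). The 3 Hnf4ctrl samples, called control, were Foxn1(cre/+) Hnf4a(fl/+) Hnf4g(+/-), so the controls too carried the cre, a floxed Hnf4a allele and a null Hnf4g allele. Foxn1-cre acts in thymic epithelium, whereas a null allele is present in every cell. The labels give no ages. The series asked what the nuclear receptors Hnf4a and Hnf4g control in the thymus.

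Keratins are the intermediate filament proteins of epithelia. A filament is built from pairs of a type I (acidic) and a type II (basic) keratin, and each kind of epithelium uses its own pairs. KRT8 with KRT18 is the pair of simple epithelia, KRT5 with KRT14 that of the basal layer of stratified epithelia, and KRT1 with KRT10 that of the layers above it in the epidermis. The thymic medulla contains mimetic cells, epithelial cells that resemble cells of skin, gut, airway or muscle in what they express, and keratin antibodies have long been used to tell thymic epithelial compartments apart.

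All 7 samples went through 1 droplet run and were told apart by hash tags, DNA-tagged antibodies that mark the sample. The mutant samples held 1373 to 1652 cells and 19321440 to 23501741 UMIs, and the control samples 801 to 1579 cells and 10127838 to 25821970 UMIs. The deposited cell table placed 9185 cells in 15 classes. Each of the 11 classes with a marker list of its own had the highest summed level of that list among the 15, among them Tuft, Microfold, Keratinocyte, Secretory and Ciliated. The lists for endothelial cells and fibroblasts summed to 3.88 to 6.34 and 10.3 to 24.0 CPM per sample, where CPM is UMIs per 1000000 UMIs of the sample. The list for myeloid and B cells summed to 199 to 340.5 CPM per sample, of which Lyz2, the lysozyme gene of myeloid cells and some epithelia, gave 193 to 332 CPM. Its other members, Csf1r, Cd79a, Ms4a1 and Itgax, were each at 4.31 CPM or less. By class this list was highest in Klk-rich cells, at 1884 CPM. Ptprc, which encodes CD45, stood at 22.9 to 28.5 CPM in the mutant samples and 12.1 to 30.3 CPM in the control samples. Itgb4, which encodes CD104, was still read at 31.3 to 39.5 CPM in the mutant samples and 35.2 to 38.7 CPM in the control samples, although the cells were sorted as CD104-. Hnf4g was 88.4, 79.8, 86.1 and 78.1 CPM in the mutant samples and 122, 117 and 116 CPM in the control samples, and Hnf4a was 0.673 to 2.27 CPM in the mutant samples and 1.68 to 3.18 CPM in the control samples. Molecules counted at their 3' end do not check a deletion elsewhere in the gene. Pth, the parathyroid hormone gene, was 281, 599.8, 895 and 24.0 CPM in the mutant samples and 4.05, 4.23 and 7.86 CPM in the control samples, while Gcm2, which defines parathyroid cells, was 0.581 CPM or less in each sample. The part of these differences in the keratin results was not tested.

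The family sits in 2 clusters. In mm10, 27 members lie on chromosome 11 between 99232761 and 100269871, all of them type I, and 27 lie on chromosome 15 between 101347444 and 102032027. The pseudogene Krt8-ps lies on chromosome 7. All members on chromosome 15 are type II except Krt18, at 102028180 to 102032027, the next keratin gene after Krt8 at 101996698 to 102004482. Levels below are given as CPM of a sample, or of a sample and class with at least 10 cells, as mean ± SD over samples. They count molecules caught at their 3' end, with no scaling for gene length. Since the classes were made from the same cells, keratins included, levels by class are a description without a test. Genes with close copies, such as Krt6a and Krt6b, Krt14, Krt16, Krt17 and Krt42, or Krt33a and Krt33b, are uncertain where reads could fit either copy.

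Over all cells Krt8, Krt18 and Krt17 supplied 28.7%, 25.5% and 16.6% of the keratin UMIs. Among the keratins of simple epithelia, Krt8 and Krt18 were read in every class, and their order differed between classes. Krt8 was highest in Tuft cells, chemosensory cells like those of gut and airway, at 2488 ± 106 CPM (SD, n = 7). Ciliated cells followed with 2124 ± 269 CPM, and their sample ranges, 2349 to 2671 in Tuft and 1822 to 2600 CPM in Ciliated cells, overlapped. The lowest of the 14 classes with at least 2 samples was Keratinocyte, at 713 ± 78.4 CPM. Krt18 was also highest in Tuft cells, at 2443 ± 134 CPM, with Secretory cells second at 1952 ± 237 CPM. Its lowest class was TA, the proliferating class, at 350 ± 94.1 CPM. Ciliated cells held 2124 CPM of Krt8 but 1002 ± 188 CPM of Krt18, whereas in Tuft cells the partners stood at similar counts.

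Windows around the annotated starts of this pair, from the RefSeq table for GRCm38.p6, the assembly that mm10 names, are printed to show the bases around those starts. Each runs from 250 bases before to 50 bases after the start, on the gene's strand. Capitals mark TATAAA, the letters of a TATA box core, on either strand. In Krt8 the 2 overlapping matches begin 1 and 3 bases before the annotated start and run across it. The Krt8 window is chr15:102004293-102004592 on the minus strand and the Krt18 window is chr15:102027966-102028265 on the plus strand. Both RefSeq starts lie inside the gene spans given above, so some of the bases before each start are within the gene.
Krt8: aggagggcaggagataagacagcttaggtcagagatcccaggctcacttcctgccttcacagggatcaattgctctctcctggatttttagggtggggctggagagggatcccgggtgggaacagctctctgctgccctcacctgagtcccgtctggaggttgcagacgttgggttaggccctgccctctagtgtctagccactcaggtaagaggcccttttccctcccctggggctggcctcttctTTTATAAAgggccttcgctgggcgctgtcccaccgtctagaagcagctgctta
Krt18: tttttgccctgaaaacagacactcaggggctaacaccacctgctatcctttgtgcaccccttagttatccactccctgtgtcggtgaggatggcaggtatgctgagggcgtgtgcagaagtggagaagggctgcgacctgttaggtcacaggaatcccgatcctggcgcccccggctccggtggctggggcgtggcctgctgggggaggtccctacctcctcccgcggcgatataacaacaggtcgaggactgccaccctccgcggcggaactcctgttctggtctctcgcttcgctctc
Krt8 holds TATAAA and the Krt18 window does not. Among 37 windows of 36 keratin members, 19 held TATAAA (51.4%), against 4473 of all 32851 windows (13.6%). GGGCGG, the GC box, was in 2 of the 37 (5.41%), against 35.7% of all windows. Some of the 37 windows, such as those of Krt7 and Krt14, lie wholly inside the span of the gene in mm10.

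The other simple keratins were more restricted. Krt19, a type I keratin of ducts and simple epithelia, stood at 830 ± 73.6 CPM in Secretory cells and 828 ± 117 CPM in Tuft cells, which did not differ beyond their spread. It was 18.5 ± 13.1 CPM in Transitional cells. Krt7, a type II keratin of glandular and ductal epithelium, was highest in Neuroendocrine cells at 925 ± 79.7 CPM, and its lowest sample there, 831 CPM, exceeded the highest Immature sample, 538 CPM. Immature cells came second at 461 ± 59.7 CPM, and Tuft cells held 28.3 ± 4.08 CPM. Neuroendocrine cells therefore carried Krt7, and Tuft cells Krt19, beside the shared Krt8 and Krt18. Neither gene was particular to that class. Krt7 was also among the 3 leading keratins of Klk-rich cells, at 319 ± 82.6 CPM (n = 5), and Secretory cells held as much Krt19 as Tuft cells. Krt23, a type I keratin, was shared by Secretory cells at 325 ± 81.6 CPM and Keratinocyte cells at 279 ± 48.1 CPM, whose ranges overlapped. Krt20, a keratin of differentiated gut epithelium, was highest in Microfold cells, the mimics of the antigen-sampling cells of gut lymphoid tissue. It averaged 588 ± 241 CPM there (SD, n = 6), and the second class, Entero-hepato, had 81.5 ± 35.6 CPM in its 2 samples. The lowest Microfold sample, 281 CPM, was above the highest Entero-hepato sample, 107 CPM. Krt8, Krt20 and Krt18 made up 36.3%, 20.4% and 18.1% of the keratin UMIs of Microfold cells.

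**Figure D1:**
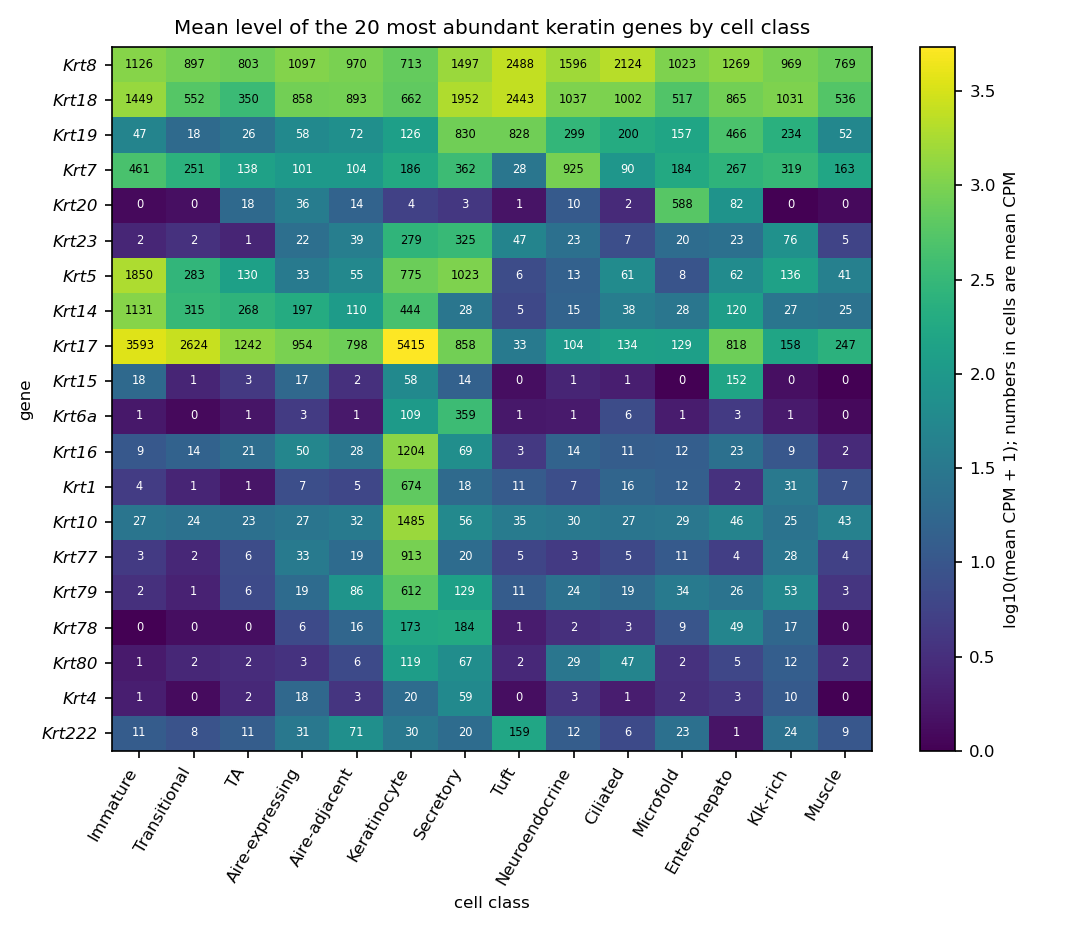
Mean CPM over samples (colour: log10 of mean CPM + 1, numbers: mean CPM) of the 20 most abundant keratin genes, in rows, in the 14 cell classes with at least 2 samples, in columns. Krt20 reached 588 CPM in Microfold cells and Krt17 5415 CPM in Keratinocyte cells, while Krt8 was at least 713 CPM in each class shown.

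The basal keratins Krt5 and Krt14 were highest in Immature cells and both present in Keratinocyte cells, but did not go together in Secretory cells. Krt5 was 1850 ± 324 CPM in Immature cells, 1023 ± 262 CPM in Secretory cells and 775 ± 369 CPM in Keratinocyte cells. Krt14 was 1131 ± 101 CPM in Immature cells and 444 ± 116 CPM in Keratinocyte cells. Secretory cells, second for Krt5, held 28.4 ± 21.4 CPM of its partner Krt14, and the highest Secretory sample (60.6 CPM) was below the lowest Keratinocyte sample (308 CPM). For both genes the lowest Immature sample, 1505 CPM of Krt5 and 998 CPM of Krt14, was above the highest sample of the second class. After each cell was thinned to 3000 UMIs, Krt14 was found in 80.0% of 340 Immature cells (exact 95% interval 75.3 to 84.1%) and 4.43% of 474 Secretory cells (2.76 to 6.69%). Krt5 was found in 91.5% and 47.9% of the same cells. In Tuft cells, which had little of either, the shares were 1.59% for Krt14 and 1.69% for Krt5. Before thinning, the Krt14 shares were 91.0% in Immature, 13.3% in Secretory and 5.83% in Tuft cells, whose median UMIs per cell were 8083, 11243 and 12186. Thinning left out 69 of 5890 mutant and 40 of 3295 control cells with fewer UMIs, and the intervals cover counting error only.

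Krt17, a type I keratin of stressed and appendage epithelium, was the most abundant keratin in 4 classes. It was highest in Keratinocyte cells at 5415 ± 1040 CPM, followed by Immature cells at 3593 ± 584 CPM, Transitional cells at 2624 ± 193 CPM and TA cells at 1242 ± 100 CPM. Tuft cells had 32.7 ± 5.01 CPM of it. Krt16, a keratin of wounded and fast-growing epidermis, was 1204 ± 224 CPM in Keratinocyte cells and 68.9 ± 30.0 CPM in Secretory cells. Krt6a, its usual type II partner in skin, had another order, with 359 ± 120 CPM in Secretory cells and 109 ± 51.2 CPM in Keratinocyte cells. The ranges of these 2 classes did not overlap for either gene. Krt15, a keratin of basal cells and hair follicle stem cells, was 152 ± 172 CPM in the 2 Entero-hepato samples and 58.4 ± 36.4 CPM in Keratinocyte cells. One Entero-hepato cell of control sample 3 held 90 of the 1260 UMIs of Krt15, and without that sample Keratinocyte was its highest class.

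The suprabasal keratins were concentrated in Keratinocyte cells, which made up 8.36% of the cells and held 73.1% of the 56326 UMIs of this group of 13 members. Krt10 stood at 1485 ± 346 CPM there and 55.7 ± 22.6 CPM in Secretory cells, the second class. Krt1 stood at 674 ± 359 CPM in Keratinocyte cells and 31.2 ± 14.3 CPM in Klk-rich cells. Krt77, a type II keratin of epidermis and, in humans, sweat ducts, was 913 ± 186 CPM, with Aire-expressing cells second at 33.1 ± 11.3 CPM. Krt79, a keratin of the hair canal and sebaceous duct, was 612 ± 161 CPM, with Secretory cells second at 129 ± 57.7 CPM. In these 4 genes every Keratinocyte sample was above every sample of the second class. Outside this class Krt10 ranged from 23.1 CPM in TA cells to 55.7 CPM in Secretory cells. The share of cells with a Krt10 UMI after thinning was 47.0% in Keratinocyte cells and 2.01% to 13.9% in the 13 other classes with at least 2 samples.

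The remaining suprabasal members were shared with Secretory cells or rare. Krt78, a keratin of differentiated keratinocytes, stood at 184 ± 38.1 CPM in Secretory and 173 ± 30.5 CPM in Keratinocyte cells, with overlapping ranges. Krt80, a type II keratin found in many epithelia, was 119 ± 18.1 CPM in Keratinocyte cells and 105 CPM in the only sample with 10 Ionocyte cells, a class whose 3 leading keratins were Krt18, Krt8 and Krt7. Krt4, the type II keratin of the mouth and oesophagus, was 58.7 ± 51.5 CPM in Secretory cells and 20.2 ± 20.2 CPM in Keratinocyte cells. Its usual partner Krt13 was highest in Aire-expressing cells instead, at 31.2 ± 27.6 CPM, with 83.7% of its 656 UMIs in that class. Krt222, a short type I relative of the keratins, was highest in Tuft cells at 159 ± 13.8 CPM, with Aire-adjacent cells second at 70.8 ± 56.5 CPM and overlapping ranges. Tuft cells held 83.4% of its UMIs.

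Summed over the family, Keratinocyte cells held 14266.5 ± 1709 CPM of keratin, Immature cells 9773 ± 1296 CPM and Secretory cells 7973 ± 555 CPM (SD, n = 7). The lowest sum was that of Muscle cells, at 1919 ± 262 CPM (n = 5). Type I and type II keratins were not counted in equal amounts. Type II members supplied 63.0 ± 3.02% of the keratin UMIs in Neuroendocrine cells and 62.3 ± 3.06% in Ciliated cells, where Krt8 led and, in Neuroendocrine cells, Krt7 supplied 22.6% of the keratin UMIs. They supplied 31.5 ± 1.82% in Keratinocyte cells and 28.7 ± 1.17% in Transitional cells, where the type I gene Krt17 led. These shares are of captured RNA, not of protein.

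**Figure D2:**
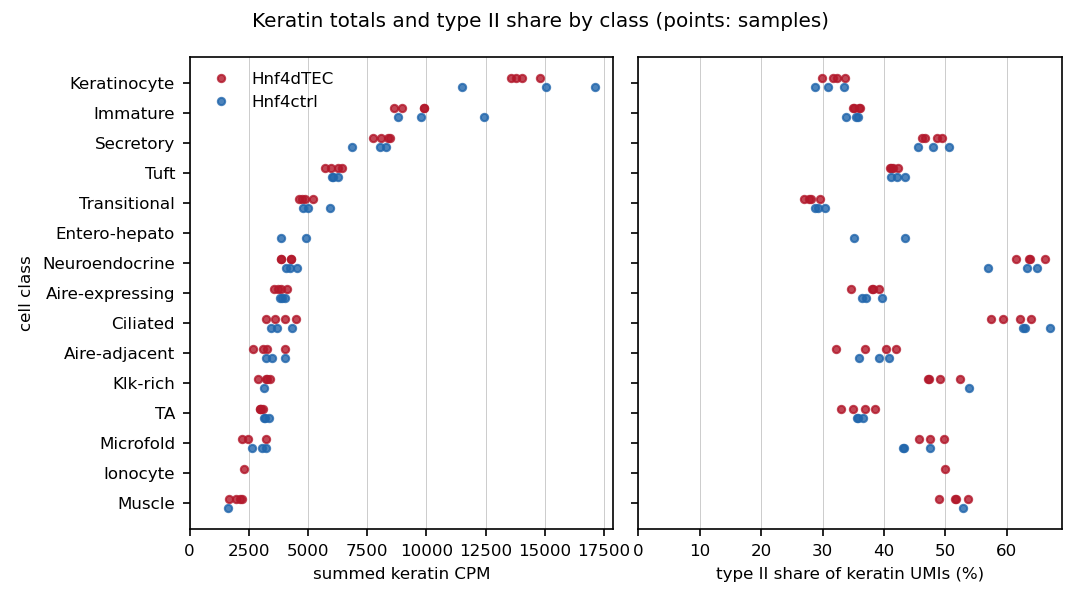
Summed keratin CPM (left) and percent of keratin UMIs from type II genes (right) for each cell class, with 1 point per sample with at least 10 cells, mutant samples above control samples. Keratinocyte cells lay between 11485 and 17112 CPM, and the type II share was over 56% in each Neuroendocrine and Ciliated sample.

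The hair keratins were rare, and several of them came mostly from few cells. The 15 members of the hair shaft, the hard keratins of hair and nail, had 3175 UMIs in all, and the 9 members of the inner root sheath and companion layer, which mould the growing hair, had 2204. Aire-expressing cells made up 8.55% of the cells and held 43.0% and 44.1% of these UMIs, and Keratinocyte cells held 25.4% and 24.5%. Tuft cells, with 44.8% of the cells, held 3.97% and 4.63%. The most abundant hair shaft member was Krt84, with 662 UMIs, and the most abundant root sheath member was Krt75, with 741 UMIs. Both were led by Keratinocyte cells in UMIs, with 53.5% and 52.9%. By mean CPM Krt84 was highest in the 2 Entero-hepato samples, at 48.4 CPM, with Keratinocyte cells second at 40.4 CPM. Krt71, a root sheath keratin, had 78.9% of its 479 UMIs in Aire-expressing cells.

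Single cells decided many of these values. Krt34, a hair shaft keratin, had 74 UMIs in 13 cells, and 38 of them (51.4%) came from 1 Aire-expressing cell of control sample 3. That cell was also the highest cell of Krt33b, with 42 UMIs, and of Krt39, with 6 UMIs. Krt33b and Krt34 are neighbouring keratin genes on chromosome 11, with 7479 bases between them. Likewise 1 Keratinocyte cell of control sample 2 held 112 of the 338 UMIs of Krt36 and 64 of the 662 UMIs of Krt84, which lie on chromosomes 11 and 15. The root sheath neighbours Krt27 and Krt28 shared their highest cell, a Ciliated cell of mutant sample 2 with 20 UMIs of each. In all, 184 of the 9185 cells had at least 5 UMIs of 1 of the 24 hair and root sheath members, 80 of them Aire-expressing and 60 Keratinocyte cells. Of these 184 cells, 156 passed 5 UMIs for 1 member alone and 28 for at least 2, with at most 5 members in 1 cell. No Tuft cell did so. Krt13 was concentrated in the same way, with 78.7% of its UMIs in 10 cells, against 0.904% for Krt8. One Keratinocyte cell of control sample 3 held 920 of the 8303 UMIs of the epidermal keratin Krt1 and was the highest cell of Krt80, with 18 UMIs. Other hair and root sheath members were more spread. Krt75, Krt87 and Krt86 had UMIs in 252, 225 and 130 cells, with 23.1%, 25.6% and 23.8% of them in 10 cells. Krt8-ps was another exception among the rare members, since its 75 UMIs came from 72 cells, and reads of Krt8 could be assigned to it.

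**Figure D3:**
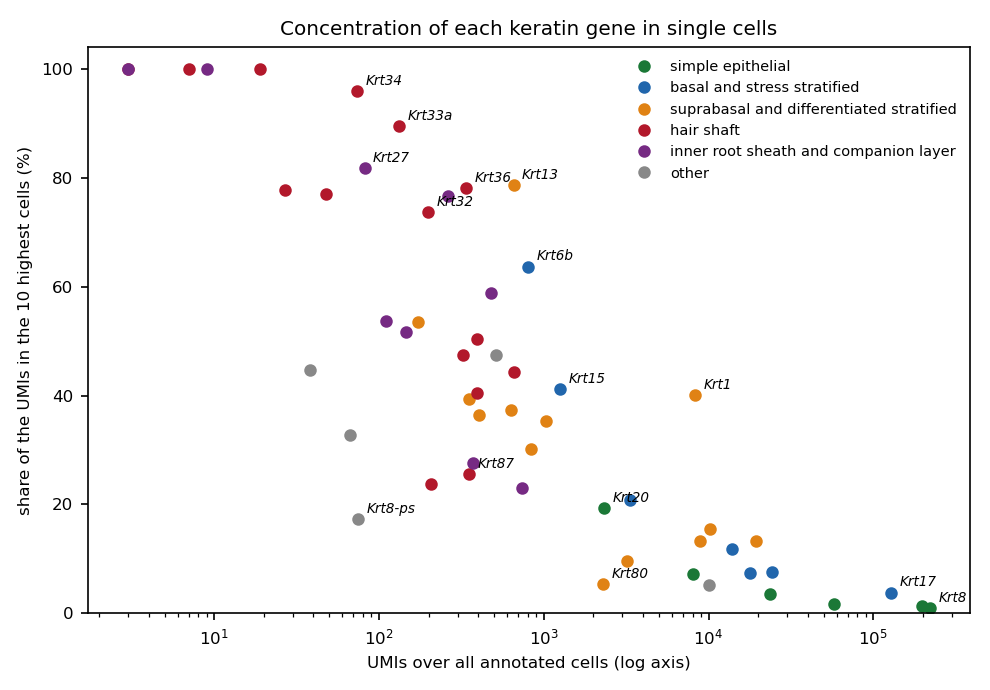
UMIs of each of the 55 keratin genes over all cells (x axis, log scale) against the percent of them in the 10 cells with the most (y axis), coloured by role group. Krt34 and Krt33a had 95.9% and 89.5% of their UMIs in 10 cells, whereas Krt8 had 0.904%.

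The second question was whether keratins differed between mutant and control samples. Sums of UMIs per sample over all cells were compared with edgeR's quasi-likelihood test, with Benjamini-Hochberg adjustment over all genes tested, and passed at an adjusted p of 0.05 or less. A log2 fold change is mutant over control. The labels do not say that the samples are separate animals, so p-values measure the spread between these samples. Of the 47 members with enough counts to be tested, 1 was lower and 0 were higher in the mutant samples, which is 1 call beside 39 of all 21187 genes (0.184%; 38 lower, 0.179%, and 1 higher, 0.00472%). The lower member was Krt20. The 8 members that were not tested, Krt26, Krt31, Krt35, Krt39, Krt40, Krt74, Krt82 and Krt88, had 3 to 48 UMIs each in all cells. The median log2 fold change of the 47 was 0.04, and that of all genes tested 0.00377. At an unadjusted p under 0.05 stood 3 members, Krt20, Krt6a and Krt75, beside 6.65% of all genes.

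The abundant pairs were close between genotypes. Krt8 was 1704, 1765, 1679 and 1532 CPM in the mutant samples and 1931, 1732 and 1494 CPM in the control samples. Krt18 was 1529, 1640, 1499 and 1330 CPM in the mutant samples and 1751, 1587 and 1241 CPM in the control samples. For both genes the mutant values lay inside the control range. Their log2 fold changes were -0.03 (SE 0.10) and -0.02 (SE 0.13), with edgeR adjusted p of 0.999 and 1.000. Krt17 was 923 ± 70.1 CPM in the mutant samples and 1042 ± 212 CPM in the control samples (log2 fold change -0.17, SE 0.13, edgeR adjusted p = 0.952). Krt19 was 478 ± 72.4 CPM in the mutant samples and 383 ± 77.1 CPM in the control samples (0.33, SE 0.17, edgeR adjusted p = 0.838). Krt5 was 175 ± 14.5 CPM in the mutant samples and 219 ± 74.7 CPM in the control samples, and Krt14 was 128 ± 13.3 CPM in the mutant samples and 143 ± 8.66 CPM in the control samples. Neither passed, with log2 fold changes of -0.32 and -0.15.

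By role, 1 of 6 simple keratins was called, and 0 of 7 basal and stress, 0 of 13 suprabasal, 0 of 10 tested hair shaft, 0 of 7 tested root sheath and 0 of 4 other tested members. The medians of their log2 fold changes were -0.02, -0.32, 0.11, -0.07, 0.22 and -0.05 in that order of groups. The summed keratin level was 5808.5 ± 247 CPM in the mutant samples and 5983 ± 855 CPM in the control samples. The type II share was 40.5 ± 0.623% in the mutant samples and 40.3 ± 1.07% in the control samples. Of the 20 most abundant members, the values of the genotypes did not overlap for 2, Krt20 and Krt6a, beside 8.17% of the 11539 genes at or above the level of the 20th. Krt6a, a type II keratin of activated and oral epithelium, was 23.3, 25.4, 36.1 and 27.0 CPM in the mutant samples and 21.3, 16.2 and 22.4 CPM in the control samples. It did not pass (log2 fold change 0.49, SE 0.18, edgeR adjusted p = 0.631). Krt75, a companion layer keratin, was 6.36 ± 1.68 CPM in the mutant samples and 3.60 ± 1.37 CPM in the control samples (0.80, SE 0.30, edgeR adjusted p = 0.646).

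**Figure D4:**
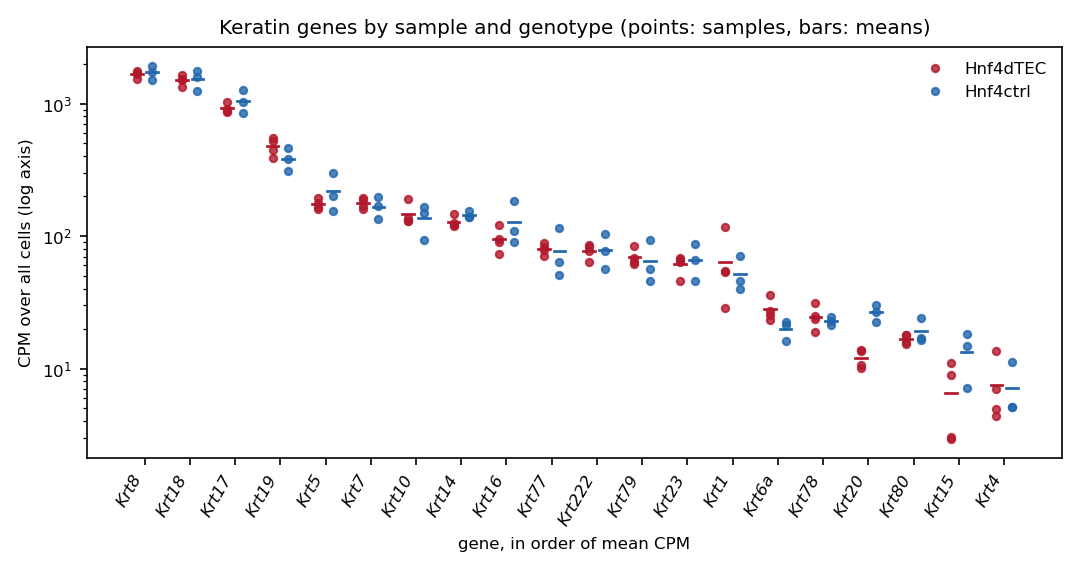
CPM over all cells (y axis, log scale) of the 20 most abundant keratin genes, in order of mean level, with 1 point per sample, the 4 mutant samples (Hnf4dTEC) left of the 3 control samples (Hnf4ctrl), and bars at the means. The genotypes are apart for Krt20, at 10.0 to 13.8 CPM in mutant and 22.6 to 30.4 CPM in control samples, and for Krt6a.

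Krt20 was 13.5, 10.7, 10.0 and 13.8 CPM in the mutant samples and 22.6, 30.4 and 26.6 CPM in the control samples. Each mutant sample was below each control sample. It fell to 12.01 ± 1.92 CPM in the mutant samples (SD, n = 4), against 26.5 ± 3.88 CPM in the control samples (SD, n = 3), with edgeR giving -1.13 on the log2 scale (SE 0.14, adjusted p = 0.0384). The call was lost in 6 of the 7 fits that left out 1 sample, with edgeR adjusted p up to 0.184 and log2 fold changes of -1.23 to -1.03. It held only without control sample 1 (edgeR adjusted p = 0.0476). With DESeq2 the adjusted p was 2.73e-08.

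Krt20 spans 99428403 to 99438150 of chromosome 11 in mm10 and is read from the minus strand. Its proximal promoter is shown because it is the called member in a knockout of DNA-binding receptors. The window is chr11:99438104-99438403 on the minus strand, 250 bases before to 50 after the start, with TATAAA in capitals 29 bases before the start.
Krt20: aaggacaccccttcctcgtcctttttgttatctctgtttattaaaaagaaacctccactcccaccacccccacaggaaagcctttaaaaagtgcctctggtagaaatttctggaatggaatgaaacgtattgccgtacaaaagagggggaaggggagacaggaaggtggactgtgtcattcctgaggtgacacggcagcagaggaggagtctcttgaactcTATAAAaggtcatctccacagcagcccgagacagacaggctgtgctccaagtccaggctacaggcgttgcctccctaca
CAAAGTCCA and CAAAGGTCA, 2 forms of the HNF4 binding motif, were searched on both strands. They were in 0 of the 37 keratin windows, and in 156 (0.475%) and 157 (0.478%) of all 32851 windows. This says only that these letters are not in these windows.

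Microfold and Entero-hepato cells gave 1189 and 128 of the 2319 Krt20 UMIs, and both were rarer in the mutant samples, by values that did not overlap and were not tested. Microfold cells were 1.21%, 1.598%, 1.75% and 0.583% of the cells in the mutant samples, and 2.25%, 2.73% and 2.09% in the control samples. Entero-hepato cells were 3 of 5890 mutant cells and 82 of 3295 control cells. Microfold cells gave 414 Krt20 UMIs over 76 cells of the class in the mutant samples, 40.2% of that genotype's Krt20 UMIs. In the control samples they gave 775 UMIs over 76 cells, which is 60.1%. Entero-hepato cells gave 16 UMIs in the mutant samples and 112 in the control samples. Aire-expressing cells gave 398 UMIs over 482 cells in the mutant samples and 204 UMIs over 303 cells in the control samples. Without Entero-hepato cells the log2 fold change over all cells was -1.08 (edgeR adjusted p = 0.0755). Without Entero-hepato and Microfold cells, a setting added after the values were seen, it was -0.16 (edgeR adjusted p = 1.000).

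Within Microfold cells Krt20 was 682, 385 and 281 CPM in the 3 mutant samples with at least 10 such cells, and 574, 968 and 640 CPM in the control samples. The values overlapped, and the difference did not pass (log2 fold change -0.73, SE 0.32, edgeR adjusted p = 0.284). Mutant sample 4 had 8 Microfold cells and was not used. In Aire-expressing cells Krt20 was 39.5 ± 18.0 CPM in the mutant samples and 32.3 ± 8.02 CPM in the control samples. In TA cells it was 5.05 ± 2.26 CPM in the mutant samples, and 86.4, 11.2 and 8.82 CPM in the control samples, of which sample 1 had 19 TA cells (log2 fold change -2.33, edgeR adjusted p = 1.000). A Krt20 UMI was found in 58.4% of 149 thinned Microfold cells (exact 95% interval 50.04 to 66.4%), 14.3% of 84 Entero-hepato cells and 6.38% of 784 Aire-expressing cells. It was in 2 of 4087 Tuft cells (0.0489%). Before thinning these shares were 74.3%, 36.5%, 14.3% and 0.680%, at median depths of 12228, 13578, 18154 and 12186 UMIs.

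**Figure D5:**
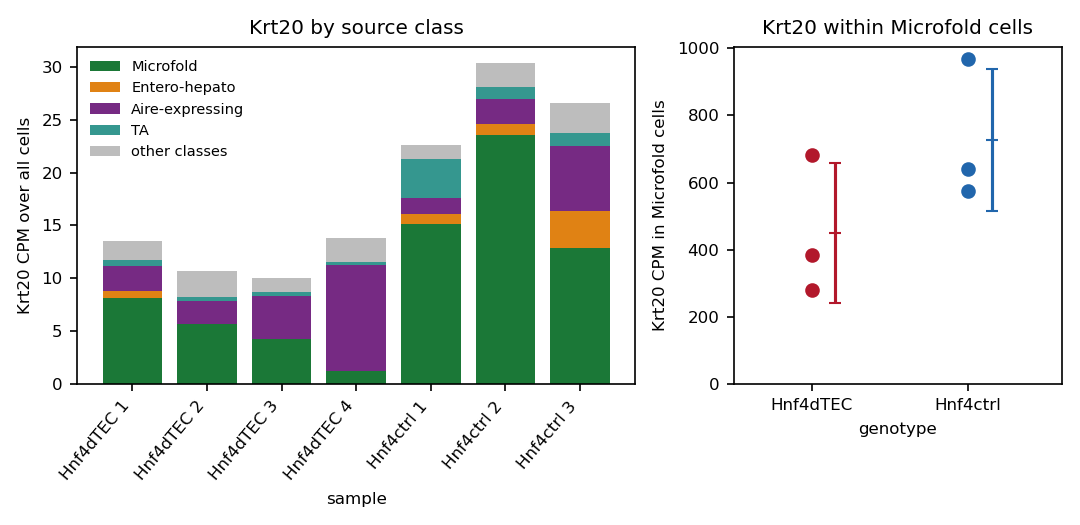
Left, Krt20 CPM over all cells of each sample, divided by the class the UMIs came from, with the 4 mutant samples left of the 3 control samples. Right, Krt20 CPM within Microfold cells by genotype, 1 point per sample with at least 10 such cells (3 mutant, 3 control) and mean and SD beside them, at 449 ± 208 CPM in mutant and 727 ± 211 CPM in control samples.

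The same test was run within the 11 classes that had at least 3 samples of each genotype with at least 10 cells. The 173 edgeR tests of members gave 0 calls and 21 at an unadjusted p under 0.05 (12.1%), beside 6971 of the 109202 tests of all genes in these classes (6.38%). DESeq2 was run on 485 member tests without edgeR's filter on low counts, but with its own default filter. That filter can leave genes with low counts without an adjusted p, and such genes stay among the tests counted. DESeq2 gave 2 calls, beside 451 of 278699 tests of all genes. These 2 calls were Krt7 in Microfold and Krt19 in Tuft cells. Members tested and the background per class were as follows. No gene of any kind passed in Aire-adjacent (14 members, 0% of 8321 genes), Aire-expressing (33 members, 0% of 12931), Ciliated (10 members, 0% of 9609), Immature (8 members, 0% of 7120), TA (13 members, 0% of 10423) or Transitional cells (10 members, 0% of 9262). Genes did pass in Keratinocyte (28 members, 0.0799% of 11267 genes), Microfold (7 members, 3.03% of 4656), Neuroendocrine (15 members, 0.389% of 11297), Secretory (20 members, 0.0314% of 9556) and Tuft cells (15 members, 0.0881% of 14760), with no keratin among them.

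Krt7 in Microfold cells came closest to the threshold. It was 276.5, 279.7 and 252.3 CPM in the mutant samples and 75.1, 70.3 and 151.7 CPM in the control samples. For this gene edgeR gave 1.34 on the log2 scale (SE 0.32, adjusted p = 0.0522). With DESeq2 the adjusted p was 0.0410. In the same cells Krt8 and Krt20, the leading keratins, did not pass. Krt19 in Tuft cells was 938, 932, 801 and 961 CPM in the mutant samples and 726, 660 and 777 CPM in the control samples. There edgeR gave 0.33 on the log2 scale (SE 0.07, adjusted p = 0.183), while DESeq2 gave an adjusted p of 0.00681. Krt5 in Ciliated cells was 16.9, 54.8, 30.9 and 48.8 CPM in the mutant samples and 78.6, 94.3 and 104.9 CPM in the control samples. The difference did not pass (log2 fold change -1.32, SE 0.33, edgeR adjusted p = 1.000). How often the genotypes were apart among all genes within a class was not counted, so such separation is not read as a result here. In Keratinocyte cells Krt17 was 5323 ± 249 CPM in the mutant samples and 5537 ± 1764 CPM in the control samples. In Immature cells Krt5 was 1720 ± 94.4 CPM in the mutant samples and 2024 ± 471 CPM in the control samples, which overlapped.

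Whether the genotype difference of a gene differed between classes was tested over all class by genotype terms together. Of 39 members tested, 0 passed with edgeR, beside 69 of 15957 genes (0.432%), and 2 had an unadjusted p under 0.05. The lowest was Krt83, a hair shaft keratin, with an unadjusted p of 0.00242 and an edgeR adjusted p of 0.194. With limma's voom and a correlation within samples, 0 of 39 passed. For Krt20 the unadjusted p was 0.0962 and the edgeR adjusted p 0.745.

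Another 3 lists of genes around the keratin filament were compared in the same fits. The linkers and partners of keratin filaments had 26 tested members over all cells, of which 0 passed with edgeR and 0 with DESeq2. At an unadjusted edgeR p under 0.05 stood 1 of them, beside 6.65% of all genes. Their median log2 fold change was -0.04. Dsp, the desmoplakin that ties keratin to desmosomes, was 383 ± 41.2 CPM in the mutant samples and 422 ± 94.8 CPM in the control samples. Dsg2, a desmosomal cadherin, was 262 ± 20.7 CPM in the mutant samples and 287 ± 36.5 CPM in the control samples. In Microfold cells 1 of 14 tested linkers passed with edgeR, beside 141 of 4656 genes (3.03%). That linker was Dsc2, another desmosomal cadherin. It was 43.1, 48.95 and 89.4 CPM in the mutant samples and 173, 147 and 171 CPM in the control samples. It fell by 1.46 on the log2 scale (SE 0.30, edgeR adjusted p = 0.0281), and the call was lost in 5 of the 6 fits without 1 sample that could be made.

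The other intermediate filaments had 0 of 16 members called over all cells with edgeR and 0 with DESeq2. At an unadjusted edgeR p under 0.05 stood 2, beside 6.65% of all genes. The median log2 fold change of the 16 was -0.20. Vim, the vimentin of mesenchymal cells, was 123 ± 33.4 CPM in the mutant samples and 108 ± 49.0 CPM in the control samples. Lmna, a nuclear lamin, was 85.8 ± 4.13 CPM in the mutant samples and 99.5 ± 5.92 CPM in the control samples (edgeR adjusted p = 0.508). The transcription factors with known roles at keratin genes had 0 of 18 called with edgeR and 0 with DESeq2, 0 at an unadjusted p under 0.05, and a median of -0.01. Their most abundant members were Ehf, at 358 ± 50.2 CPM in the mutant samples and 365 ± 87.3 CPM in the control samples, Elf3 and Klf4.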

How the data were processed

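The authors deposited raw UMI counts per gene and droplet barcode, with a table giving the sample and class of each annotated cell. Cell Ranger 6.1.0, Seurat 4.0.2 and mm10 are named per the submitters' processing notes, whereas the header of the count matrix names Cell Ranger 7.0.0. The gene annotation release, the use of strand in counting, the cell filter and any removal of doublets are not given in the sources used here. The 45 cells whose highest hash tag was that of another sample, and 184 annotated cells (2.00%) marked as doublets by Scrublet in scanpy 1.11.5, were kept and left out as alternatives. The hash-tag library belongs to no group.

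Counts were summed by sample, and by sample and class with at least 10 cells, so that the sample is the replicate. The main test was edgeR 4.0.16 (quasi-likelihood, TMM, filterByExpr, two-sided, Benjamini-Hochberg adjustment over all genes tested) in R 4.3.3. DESeq2 1.42.0 and, for the interaction, limma 3.58.1 were alternatives. The fits were also run on simulated counts, with no outcome given here. Only genes with higher counts were changed in them, so the rarest members were not covered. Cells were thinned to 3000 UMIs, with exact 95% binomial intervals. Promoter windows are from RefSeq.

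The family, its role groups, the gene lists and the tests were chosen with earlier results of these data known. Named were members past the threshold, the 20 most abundant, the 3 leading members of each class, the leading member of each role group, and called or leading list genes. The hair, root sheath and single-cell examples, Krt13, and the members named for unadjusted p-values or for missing the filter were chosen after their values were seen.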

Additional observations from a re-analysis of the deposited data

Results flagged for a closer look

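In 67 groups of 4 mutant values looked at, over all cells or within a class, 1 sample stood far from the other 3 in 4 groups, and chance flags about 5% of such groups. Krt10, the suprabasal keratin, was 190.9 CPM over all cells in mutant sample 1, and 129 to 137 CPM in the other mutant samples. Krt4, the keratin of mouth and oesophagus, was 153 CPM in Secretory cells of mutant sample 3, and 16.0 to 23.5 CPM in the other mutant samples. Krt23 was 264 CPM in Secretory cells of mutant sample 4, and 343 to 360 CPM in the others. Krt8 was 719 CPM in Aire-adjacent cells of mutant sample 4, and 925 to 943 CPM in the others.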

How the results depend on the processing

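The call of Krt20 over all cells, 1 in the main setting, held with DESeq2, RLE size factors, no filter, and without Tuft or Keratinocyte cells. The count was 0 with the replicate block, without cells marked by Scrublet (edgeR adjusted p = 0.0623), without cells whose highest hash tag was that of another sample (0.0526), without Entero-hepato cells, and without both Entero-hepato and Microfold cells. The last setting was added after the data were seen. Leaving out 1 sample gave 0 to 1 calls. The log2 fold change of Krt20 was below 0 in all 17 settings. Replicate numbers in the labels do not pair the samples by any stated source: same-numbered samples deviated from their group means with correlations of 0.23, 0.08 and 0.04 across genes, and control sample 3 correlated best with mutant sample 4. With that number as a block, the edgeR adjusted p of Krt20 was 0.185.

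Within classes the count of 0 became 2 of 485 member tests with DESeq2, beside 451 of 278699 tests of all genes. Without the filter on low counts it was 26 of 485, beside 2890 of 278699. Without cells marked by Scrublet it was 1 of 169, beside 305 of 106609. Without cells of mismatched hash tag it was 1 of 172, beside 228 of 108717. When 1 sample was left out it was 0 to 1, the 1 being without control sample 3 (1 of 182, beside 178 of 113252). Wherever this count was 1, the call was for a member higher in the mutant samples within Microfold cells. The interaction count of 0 of 39 members, beside 69 of 15957 genes, became 16 of 55 without the filter, beside 1423 of 37812 genes. It was 0 in each fit that left out 1 sample. The cause of these changes was not tested. By class, 19 or 20 of the 20 leading members kept their highest class in each setting. Krt19 changed between Secretory and Tuft cells in 4 settings, and Krt15 moved to Keratinocyte cells without control sample 3. Depth limits the rare hair and root sheath members, of which 9 had fewer than 100 UMIs each over all cells.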
